A study of Arabidopsis thaliana with 2 samples.

Results

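The genes described are 8 enzymes that write, maintain or remove DNA methylation in Arabidopsis thaliana, 8 of 33557 genes in the deposited table, chosen by gene identifier. They are the chromatin remodeller DDM1, the DNA methyltransferases MET1, CMT3 and DRM2, and the DNA glycosylases DME, ROS1, DML2 and DML3. In pollen tubes the transcripts of DDM1 and MET1 were abundant enough to compare, and both were far lower in the mutant library. DDM1 stood at 43.7 FPKM (fragments scaled to transcript length and library size) in WT and at 3.42 in drop. MET1 stood at 6.20 and 0.499. The other 6 were below 1 FPKM in both libraries, at most 0.135 in WT and 0.195 in drop.

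Plants methylate cytosine in the CG, CHG and CHH contexts, where H is any base but G. MET1 copies CG methylation onto the new strand after replication, CMT3 maintains CHG methylation beside methylated histone H3, and DRM2 adds methylation where small RNAs guide it. DDM1 is a nucleosome remodeller that lets these methyltransferases reach heterochromatin, and DME, ROS1, DML2 and DML3 cut out methylated cytosine as the start of base excision repair. A pollen grain holds a vegetative cell, which makes the tube, and a pair of sperm cells carried inside it. DDM1 protein is known to be present in sperm nuclei and lost from the vegetative nucleus, where DME removes methylation and transposons become active.

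The tubes grew semi-in-vivo: grains were placed on the stigma of an emasculated pistil, and tubes were collected after they left the cut style on solid medium. Each genotype has 1 library, wild type (WT) and the double mutant drop1- drop2- (drop), and the series' title concerns sperm cells as cargo of the tube. Each library pools tubes of 2 stigmas, with 500 to 600 grains each, cut at 300 to 400 µm and carried through Smart-seq2 on polyadenylated RNA. The labels say single cell, but the protocol describes these pools. The protocol text speaks of mutant grains for both samples, so each genotype rests on its genotype label. The mutated genes themselves were not looked up, so no transcript checks the label. The plants' accession and the pistils' genotype are not stated in the labels. With 1 library per genotype there is no replicate error, no test and no p-value, and "higher" or "lower" describes these 2 libraries.

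The stretches just before the annotated gene starts of DDM1 and MET1 are shown because these genes were the ones that differed, and that of ROS1 because it held a motif that was searched for. Each has 165 bases, the whole gap between DDM1 and the gene before it, read 5′ to 3′ on the strand of the gene from the RefSeq build TAIR10.1. Capitals mark a motif match.
DDM1 (chr5:26648732-26648896, plus strand): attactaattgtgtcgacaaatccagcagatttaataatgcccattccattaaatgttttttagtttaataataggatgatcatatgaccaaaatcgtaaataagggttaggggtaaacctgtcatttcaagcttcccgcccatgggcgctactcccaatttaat
MET1 (chr5:19931949-19932113, plus strand): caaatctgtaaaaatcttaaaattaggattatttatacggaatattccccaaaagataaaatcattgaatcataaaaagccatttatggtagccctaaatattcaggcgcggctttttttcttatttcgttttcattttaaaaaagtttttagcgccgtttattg
ROS1 (chr2:15314808-15314972, minus strand): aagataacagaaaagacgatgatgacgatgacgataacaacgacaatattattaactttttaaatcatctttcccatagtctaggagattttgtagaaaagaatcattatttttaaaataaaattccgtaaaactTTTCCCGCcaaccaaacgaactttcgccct
Both strands were searched for TTTCCCGC and TTTGGCGC, forms of the site of E2F factors, which drive S-phase genes, and for AACNGTT, a core of MYB sites. ROS1 held 1 match, TTTCCCGC with its first base at position -30 from the gene start. DDM1, MET1 and the other members held 0 matches to these letters. Over the 165 bases before 27443 protein-coding genes, TTTCCCGC was in 0.445%, TTTGGCGC in 0.273% and AACNGTT in 4.98%. A match is a description of letters, not of a bound site.

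The scale of the libraries bears on each value. Deposited FPKM summed to 2.82 times as much in drop as in WT. The smallest steps of FPKM times transcript length put 1 fragment at about 0.136 FPKM kb for WT and 0.245 for drop. Dividing the summed products by these steps gives about 7050000 fragments in the single-transcript genes of WT and about 10070000 in those of drop. By the plain definition of FPKM, however, a larger step means fewer fragments in the library, which would make drop the shallower one. Which library was deeper is therefore not settled. Fragment numbers below are such estimates and are approximate. PCR copies were not marked, so fragments are not independent molecules. Differences are given as log2((drop FPKM + 1)/(WT FPKM + 1)), which makes the ratio of a weakly expressed gene look smaller than it is. A gene counted as higher or lower at 2-fold on this scale if either library reached 1 FPKM. Of 9880 such genes, 3001 were lower in drop (30.4%) and 2605 higher (26.4%), with a median log2 ratio of -0.07. With both libraries set to equal sums, 4800 were lower and 434 higher, with a median of -0.96.

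Of the 8 genes, 2 were at least 2-fold lower in drop and 0 higher. The other 6 did not reach 1 FPKM and could not be called. As 30.4% of all genes tested were lower, the count by itself sets nothing apart. The median log2 ratio over all 8 was -0.03, since most of them sat near 0 in both libraries.

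DDM1 (AT5G66750, listed as CHR1, chromosome 5, 26648897 to 26653191, plus strand) had 43.7 FPKM in WT and 3.42 in drop. About 890 fragments lay behind the WT value and 39 behind the drop value. The drop level was 7.81% of the WT level, a 12.8-fold difference in FPKM and a log2 ratio of -3.34. DDM1 was lower on every scale used. The fold in FPKM was 36.1 at equal sums, 27.5 when the median ratio of genes with at least 10 FPKM in both was set to 1, and 13.0 after quantile normalization. Counted as estimated fragments relative to these totals it was 33.0-fold. Among genes above 0 in the same library, DDM1 ranked at percentile 92.7 in WT and 65.4 in drop. Of the 9880 genes tested, 381 had a lower log2 ratio than DDM1, or 3.86%. Where 1 library had to reach 10 FPKM, DDM1 was the only member left, and of 3633 genes there 27.9% were lower and 45.4% higher.

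MET1 (AT5G49160, chromosome 5, 19932114 to 19938470, plus strand) had 6.20 FPKM in WT and 0.499 in drop, from about 231 and 10 fragments. Its drop level was 8.05% of WT, or 12.4-fold lower, with a log2 ratio of -2.26. The smaller log2 ratio beside DDM1 comes from adding 1 to a low value, since the folds in FPKM of these 2 genes were close. Setting equal sums gave a fold of 35.1, setting the median ratio to 1 gave 26.7, and quantile normalization gave 8.41. MET1 ranked at percentile 74.9 in WT and 29.4 in drop, and 920 of the genes tested had a lower log2 ratio. With about 10 fragments in drop, its fold is much less certain than that of DDM1.

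**Figure D1:**
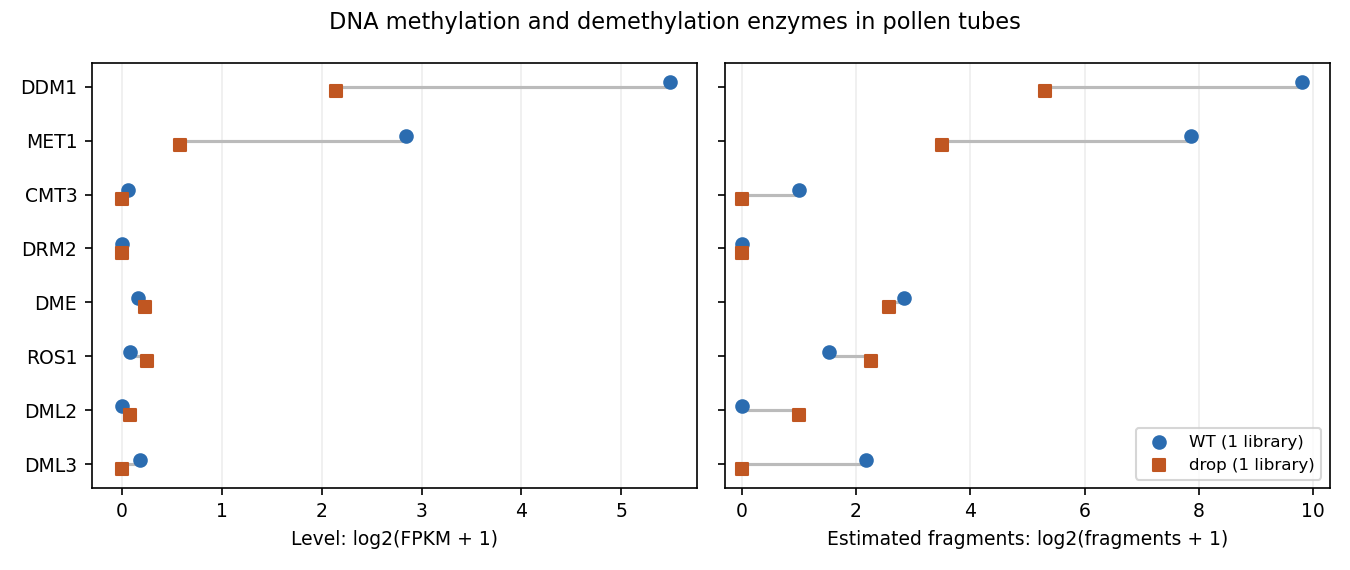
Levels of the 8 genes as log2(FPKM + 1) on the left and as log2(estimated fragments + 1) on the right, 1 point per library, WT as circles and drop as squares, joined by a line. DDM1 and MET1 are far to the right in WT and lower in drop, while the other 6 stay at about 6 fragments or fewer in both.

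The ratio of DDM1 to MET1 does not depend on a library's scaling factor, and it was 7.05 in WT and 6.85 in drop. Together the 8 genes summed to 50.3 FPKM in WT and 4.34 in drop, or 8.64% of WT. DDM1 made up 87.0% of that sum in WT and 78.7% in drop, and MET1 12.3% and 11.5%. The order of these 2 genes, DDM1 above MET1 above the rest, was the same in both libraries. The share of the other 6 was 0.709% in WT and 9.86% in drop, while their summed level was 0.357 and 0.428 FPKM. That larger share came with smaller sums for DDM1 and MET1 and rests on about 13 fragments in WT and 10 in drop.

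The methyltransferases other than MET1 were at the edge of detection. CMT3 (AT1G69770, chromosome 1) was at 0.0465 FPKM in WT, the value of about 1 fragment, and was listed at 0 in drop. DRM2 (AT5G14620, chromosome 5) was listed at 0 in both libraries. For DRM2, 1 fragment would have been worth about 0.0583 FPKM in WT and 0.105 in drop, so lower levels were not detectable at this depth.

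The 4 glycosylases were also near the limit, and no order between the libraries can be read from them. DME (AT5G04560, chromosome 5), the glycosylase that acts in the vegetative and central cells, had 0.121 FPKM in WT and 0.177 in drop. These values correspond to about 6 and 5 fragments, and equal sums changed the log2 ratio from 0.07 to -0.08. ROS1 (AT2G36490, listed as DML1, chromosome 2), the main glycosylase of leaves and roots, was at 0.0548 and 0.195 FPKM, or about 2 and 4 fragments. DML2 (AT3G10010, chromosome 3) was listed at 0 in WT and stood at 0.0560 in drop, the value of 1 fragment. DML3 (AT4G34060, chromosome 4) was at 0.135 FPKM in WT, about 3.5 fragments, and was listed at 0 in drop. In all, the 4 summed to 0.310 FPKM in WT and 0.428 in drop, from about 12 and 10 fragments. A value of 0 can also be a failed estimate, so no fold is given against it. For scale, 54.9% of all genes were listed at 0 in WT and 61.4% in drop.

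Sperm markers were lower in drop, as DDM1 and MET1 were, while markers of the tube cell were higher as deposited. Of 16 sperm markers, 14 were at least 2-fold lower, beside 30.4% of all genes tested, and the other two, DAZ1 and GEX2, were below 1 FPKM in both libraries. Over all 16 the median log2 ratio was -3.58, and their sum, most of it from 1 gene, was 51697 FPKM in WT and 3456 in drop, or 6.68% of WT. Per gene, the 12 with at least 10 FPKM in WT stood in drop at 2.33% to 14.7% of WT, with a median of 4.58%. Of these 12, 10 kept a smaller percentage than DDM1, and 10 a smaller one than MET1. The F-box gene DAF1, the most abundant of these markers, had 32693 FPKM in WT and 2748 in drop. The cysteine-rich gene PCR11 was at 8504 and 220.2, and the membrane protein gene DMP9, listed as DAU2, at 111 and 2.59. The germline regulator DUO1 was at 8.34 and 0.760, a level close to that of MET1 in each library. All 13 vegetative tube markers were at least 2-fold higher in drop as deposited, from 202% to 670% of WT, beside 26.4% of all genes tested. All 13 had at least 10 FPKM in WT, and of all genes with at least 10 FPKM in a library 45.4% were higher. At equal sums 3 of the 13 were at least 2-fold higher and 0 lower, beside 4.39% and 48.6% of all genes tested. With the median ratio set to 1, 6 were higher, beside 7.80% of all genes tested. After quantile normalization 8 were higher, beside 27.6%. DDM1 and MET1 thus had lower ratios than these markers on each of these scales. Among them the pectin methylesterase VGD1 was at 5688 and 19160 FPKM, AGP11 at 11006 and 28010, the kinase gene CPK34 at 58.6 and 363, and MYB120 at 90.2 and 604. AGP11 turned lower at equal sums, with a log2 ratio of -0.15, and after quantile normalization, with -0.12. In pooled tubes, fewer sperm cells and less RNA per sperm cell cannot be told apart.

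Of 11 markers of green tissue and style, 6 reached 1 FPKM, 4 were at least 2-fold lower in drop and 0 higher. Among all genes tested, 30.4% were lower and 26.4% higher. The 4 lower markers were photosynthesis genes, among them RBCS3B at 83.7 and 3.22 FPKM and CAB1 at 7.19 and 1.52. Another photosynthesis gene, LHCB2.1, was at 3.96 and 3.24 FPKM, with a log2 ratio of -0.23. Of the style and carpel genes, HAF, listed as CES, was the only one to reach 1 FPKM, at 43.8 and 55.1, and STIG1 and CRC were listed at 0 in both. At equal sums all 6 were at least 2-fold lower, beside 48.6% of all genes tested, and the log2 ratio of HAF went from 0.33 as deposited to -1.12. The 11 summed to 171 FPKM in WT and 73.1 in drop as deposited. The part of such cells in the levels of DDM1 and MET1 was not tested.

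**Figure D2:**
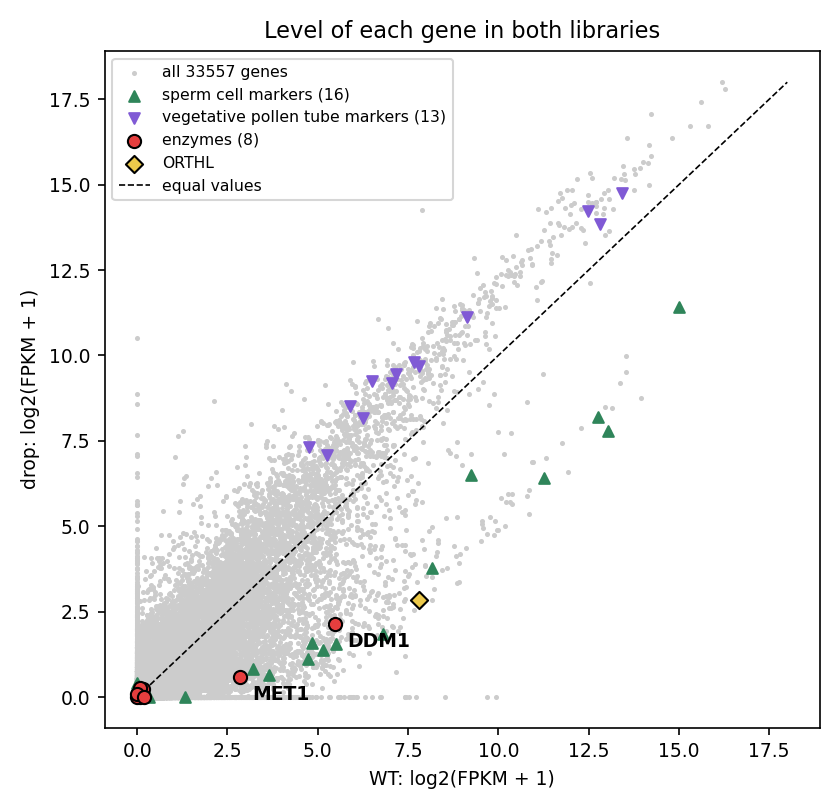
Each point is 1 gene, with its level in WT on the x axis and in drop on the y axis, both as log2(FPKM + 1), and the dashed line marks equal values. DDM1 and MET1 lie below the line as do most sperm markers and the gene ORTHL, and the vegetative tube markers lie above the line.

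No annotated gene overlapped any of the 8, so 0 members share exons with a neighbour. The gene before DDM1, AT5G66740, ends 165 bases upstream on the same strand and had 8.17 FPKM in WT and 28.0 in drop, the opposite direction. A transfer RNA gene that starts 78 bases after DDM1 was listed at 0 in both. The gene after MET1, AT5G49170, starts 69 bases beyond it on the other strand and was listed at 0 in both. Before MET1 lies the long non-coding RNA gene AT5G49152, at 15.4 and 17.7 FPKM, which overlaps the sperm gene GEX2. GEX2 was listed at 9.35e-05 FPKM in WT, below the 0.0417 of 1 fragment, and at 0.331 in drop, so it is no guide to sperm RNA here. Among the neighbours of the members near the detection limit, AT2G36500, next to ROS1, was at 34.7 and 139.5 FPKM, and CCoAOMT1, next to DML3, at 49.6 and 39.9.

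The wider machinery was read from 6 lists with 65 genes. Of these, 22 reached 1 FPKM, and 13 were at least 2-fold lower, 3 higher and 6 between, with a median log2 ratio of -1.20 beside -0.07 for all genes tested. At equal sums 18 were lower and 0 higher, with a median of -1.43 beside -0.96, where 48.6% of all genes tested were lower. After quantile normalization 10 were lower and 4 higher, where 24.8% of all genes tested were lower and 27.6% higher. Several of the lower genes reached 1 FPKM only in WT, some just above it, and the higher gene APE1L reached it only in drop. A gene that passes the filter through 1 library, with a value near 0 in the other, is called almost by construction. These counts and medians are therefore not a measure of the machinery as a whole. A further 23 of the 65 were listed at 0 in both libraries.

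Partners of maintenance methylation held the gene with the highest FPKM in WT among the 8 enzymes and the 6 lists. VIM proteins bind half-methylated DNA and bring MET1 to it. ORTHL (AT4G08590, also called VIM6), a relative of this family, had 219.7 FPKM in WT and 6.19 in drop, a log2 ratio of -4.94 from about 3014 and 47 fragments. In WT it exceeded DDM1, and its drop level was 2.82% of WT. VIM3 was at 3.06 and 0.106 FPKM, and VIM1, VIM4 and VIM5 were between 1.10 and 1.59 in WT and listed at 0 in drop. VIM genes are close paralogs and may share reads. The histone methyltransferase gene SUVH5, which works with CMT3, was at 2.68 and 0.174. SUVH4, the main partner of CMT3, went the other way, at 3.67 FPKM in WT against 14.0 in drop. Its log2 ratio was 1.68 as deposited, 0.35 at equal sums and 1.84 after quantile normalization. Of 9 genes in the list, 7 reached 1 FPKM, 6 were lower and 1 was higher, beside 30.4% and 26.4% of all genes tested. All the lower ones except ORTHL reached 1 FPKM only in WT.

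Among the other methyltransferases and their relatives, 1 of 8 reached 1 FPKM. This was DRM3, a relative of DRM2 without catalytic activity, at 1.59 FPKM in WT and 0.0906 in drop. Its log2 ratio of -1.25 was -0.98 after quantile normalization, short of 2-fold. DRM1, CMT1, CMT2, MET2A, MET2B and MET3 were listed at 0 in both libraries.

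Genes of RNA-directed DNA methylation, the route that ends in DRM2, had low values or were listed at 0. Of 23 genes, 1 reached 1 FPKM and 16 were listed at 0 in both libraries. These 16 included the polymerase subunit genes NRPD1, NRPE1 and NRPD2, and RDR2 and DCL3, which make the small RNAs. The exception was the Argonaute gene AGO9, at 4.56 FPKM in WT from about 103 fragments and listed at 0 in drop. AGO4 was listed at 0 in WT and stood at 0.154 in drop, about 2 fragments.

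Partners of demethylation did not move as a block on the deposited scale. Of 15 genes, 7 reached 1 FPKM, of which 4 were lower, 1 was higher and 2 were between. Shares over all genes tested were 30.4% lower and 26.4% higher. At equal sums 6 were lower and 0 higher, beside 48.6% and 4.39% of all genes tested. ZDP (AT3G14890), the phosphatase that trims the DNA end left by the glycosylases, had 27.0 FPKM in WT and 1.59 in drop. Its drop level was 5.88% of WT, from about 470 and 15 fragments. The FACT histone chaperone helps DME reach its targets in the central cell, and its subunit gene SSRP1, listed as HMG, was at 12.4 and 2.35. SPT16, the other subunit gene, was at 4.62 and 1.96, with a log2 ratio of -0.92. LIG1, the DNA ligase that seals the repaired strand, had 9.80 and 9.02 FPKM, with log2 ratios of -0.11 as deposited and -1.36 at equal sums. The endonuclease gene APE1L was the higher one, at 0.217 and 1.56 FPKM, from about 2.5 and 9.8 fragments.

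Genes that supply the methyl group, which every methyltransferase of the cell draws on, were closer to equal on the deposited scale. All 6 reached 1 FPKM, and 1 was lower, 1 was higher and 4 were between, beside 30.4% lower and 26.4% higher among all genes tested. At equal sums 4 were lower and 0 higher, beside 48.6% and 4.39% of all genes tested. Their median log2 ratio was 0.02 as deposited and -1.34 at equal sums, beside -0.07 and -0.96 for all genes tested. The S-adenosylmethionine synthetase genes SAM1 and MAT3 had 40.1 and 41.2 FPKM in the WT library, against 36.9 and 39.9 in the mutant. SAM2 was at 46.9 and 10.2. MAT4, listed as MTO3, was at 13.9 and 34.8, with a log2 ratio of 1.27 as deposited but -0.16 at equal sums. These synthetases are close paralogs and may share reads. Of the 4 readers of methylated DNA, MBD5, MBD6, SUVH1 and SUVH3, 0 reached 1 FPKM.

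**Figure D3:**
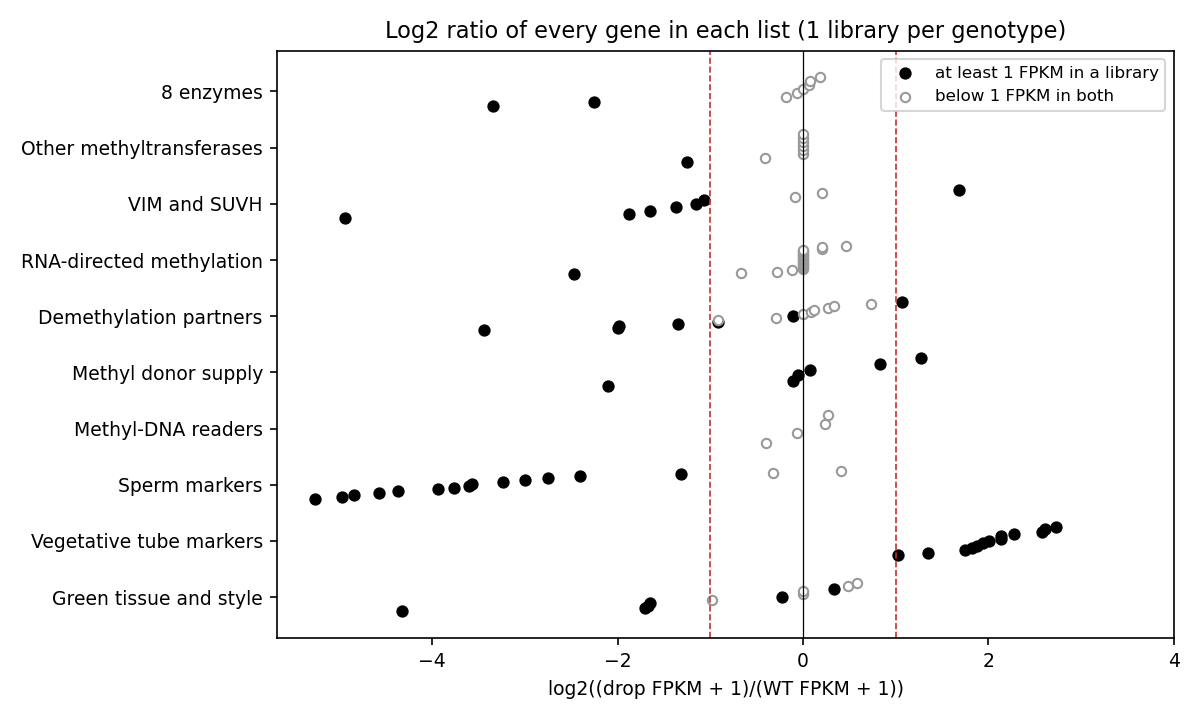
Log2 ratio of every gene in each list, 1 point per gene, with filled points for genes of at least 1 FPKM in a library, open points for the rest, and dashed lines at 2-fold. DDM1 and MET1 are the filled points of the top row, near -3.34 and -2.26, ORTHL is the leftmost point of the VIM and SUVH row, and the 6 remaining enzymes sit around 0.

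**Figure D4:**
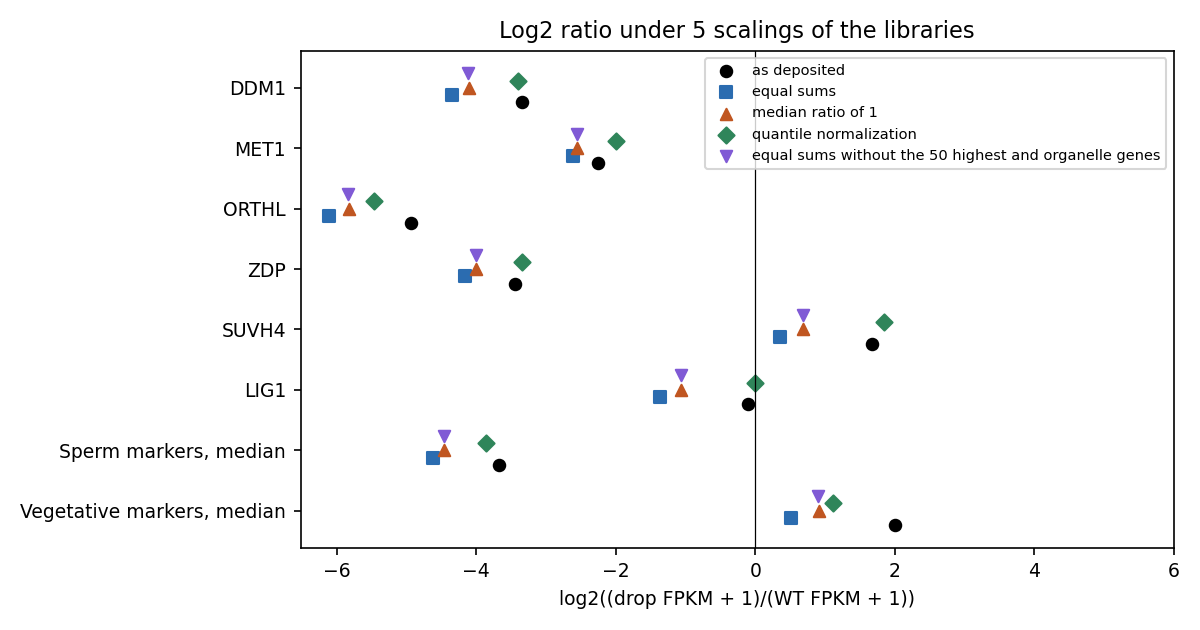
Log2 ratio of 6 genes and the median of 2 marker lists under the 5 scalings of the libraries, 1 symbol per scaling. DDM1, MET1, ORTHL and ZDP stay below -1 under each, SUVH4 stays above 0, and LIG1 moves between -1.36 and -0.01.

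The genes nearest to DDM1 in the plane of both levels were AT2G20930, at 43.7 FPKM in WT and 3.54 in drop, AT2G43640, at 43.2 and 3.63, and AT1G56060, at 43.4 and 3.21. Nearest to MET1 were the transcription factor gene MYB88, at 6.20 and 0.498 FPKM, AT1G06510, at 6.24 and 0.521, and NF-YC5, at 6.14 and 0.469. Nearness is the Euclidean distance in log2(FPKM + 1) over 2 libraries. With so few libraries many genes lie close, and it describes levels only.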

How the data were processed

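RNA of 2 libraries, 1 per genotype, was deposited by the authors as FPKM, per the file headers, in a column for each library. The submitters' processing notes list TopHat2 2.0.14 and Cufflinks 2.2.1 with the genome TAIR10. Parameters and further scaling steps are not stated there. FPKM times length in kb was summed over 17910 genes with a single transcript of at least 600 bases. The sum was 1939654 in drop and 814872 in WT. Mapped fragments alone allow at most 1000000 if FPKM was scaled by the full transcript length. Scaling by a shorter length would raise the sum, and the length used is not stated. Results were therefore also computed under 4 other scalings.

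From the deposited FPKM, log2 ratios with 1 added were computed in Python 3.11.15 with pandas 2.3.3 and numpy 2.4.6. The value of 1 fragment was read from the lowest peak in the product of FPKM and length among single-transcript genes of at least 3000 bases (51 genes in WT, 99 in drop). Fragments use the longest RefSeq transcript. The fragment value, and log2 ratios after the median ratio was set to 1, were checked on simulated counts with a single length per gene. That check did not cover the choice of transcript or PCR copies. All 113 gene identifiers of the members and lists were found, and 32810 of 33557 matched RefSeq TAIR10.1, which gave symbols, positions and sequences.

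The members and lists were chosen with earlier results of these data known. Named are the members, their neighbours, the 3 genes nearest to DDM1 and MET1, and from each list the 2 genes of highest mean FPKM and the 2 of largest absolute log2 ratio. DUO1, DAZ1, GEX2, LHCB2.1, STIG1, CRC, SUVH5, VIM1, VIM4, VIM5, SPT16, APE1L, AGO4, the readers and genes listed at 0 are named beyond that rule, after their values were seen. No test was run, as each genotype has 1 library.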

Additional observations from a re-analysis of the deposited data

How the results depend on the processing

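No paired analysis was possible because there is only 1 library of each genotype. Of the 8 enzymes, 2 were at least 2-fold lower as deposited, under each other scaling, with 0.1 added to FPKM, with no filter and at 4-fold. With 10 added, or with a minimum of 10 FPKM, 1 was lower, because MET1 is below that level. The log2 ratio of DDM1, -3.34, was -2.00 with 10 added, -4.34 at equal sums, -4.11 with the median ratio set to 1 and -4.12 when sums were equal outside the 50 highest genes and the organelles. That of MET1, -2.26, was -3.39 with 0.1 added and -0.63 with 10 added. A larger added value shrinks low levels by construction, and a scaling shifts all genes.

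Over all genes, the number at least 2-fold higher in drop, 2605, was 1201 with 10 added, 1650 with a minimum of 10 FPKM, 762 at 4-fold, 434 at equal sums, 771 with the median ratio set to 1 and 763 when sums were equal outside the highest and organelle genes. The number lower, 3001, was 745, 1015 and 1180 under the first 3 of these and 4800 at equal sums. It was 4286 with the median ratio set to 1, and 4296 when sums were equal outside the highest and organelle genes. After quantile normalization 2725 were higher and 2453 lower. With 1 added, no gene under the filter's minimum can reach 2-fold, so dropping the filter changes no count. The median over the 8 was not recomputed under other filters, since it covers all of them. With FPKM replaced by estimated fragments, MET1, a longer transcript, held 20.3% of the summed 8 in WT and 17.5% in drop. The values of 6 of the 8 enzymes rest on about 6 fragments or fewer, too few to order the libraries.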
